A study of Drosophila melanogaster with 4 samples.

Results

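The Hox gene complexes of Drosophila melanogaster, the Antennapedia complex and the bithorax complex, were examined for binding by L(3)mbt. Members were all listed regions on chromosome arm 3R whose centre lay from 2480000 to 2830000 (Antennapedia complex, 350 kb) or from 12480000 to 12810000 (bithorax complex, 330 kb), in coordinates of genome release 5, whose chromosome names the deposited lists carry. At the stricter false discovery rate of 0.5%, 33 L(3)mbt peaks were members, 17 in the Antennapedia complex and 16 in the bithorax complex. They made up 33 of the 796 peaks of 3R and 0.996% of the whole list. At the rate of 3%, 38 of 1088 peaks of 3R were members, 0.831% of the list. Of the unfiltered ChIP calls 87 of 18529 were members, and of the input calls 218 of 46603.

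The study profiled L(3)mbt with ChIP-seq, the sequencing of immunoprecipitated chromatin, in brains mixed with imaginal discs, the larval precursors of adult appendages, here those of the third leg, wing and haltere. Larvae of the third instar were raised at 25 °C. The L(3)mbt ChIP group had 2 samples, one of w1118, a laboratory stock with white eyes, and one of Canton S, a wild-type stock, and the labels record no treatment. A guinea pig antibody was used, made against residues 1244 to 1477 of L(3)mbt. The input group had 2 samples of DNA from the same strains with no antibody. The deposited lists name no strain, and each was taken to stand for its group as a whole. Thus no value per strain, no SD and no test over replicates can be given, and sequencing depth is unknown. The tissue is mixed, so a peak cannot be assigned to brain or to disc cells.

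Hox genes encode homeodomain transcription factors that give body segments their identity, and their order along the chromosome follows the order of the body parts they specify. In flies they lie in a pair of complexes. The Antennapedia complex holds lab and pb, which act in the head and the mouthparts, Dfd, which specifies the maxillary and mandibular segments, Scr, which acts in the labial and the first thoracic segment, and Antp, which acts in the thorax and its legs. The same stretch holds zen2, zen, bcd, Ama and ftz, of which zen, bcd and ftz pattern the early embryo. The bithorax complex holds Ubx, which gives the haltere and the third leg their identity, and abd-A and Abd-B, which specify the abdomen. Its regulatory DNA is divided into segment-specific domains by boundary elements such as Mcp, Fab-7 and Fab-8, at which insulator proteins bind. L(3)mbt is a chromatin protein with MBT domains and a tumour suppressor of the larval brain. In the release 6 gene table the genes run, from low to high coordinates, in the order lab, pb, zen2, zen, bcd, Ama, Dfd, Scr, ftz, Antp and then Ubx, bxd, abd-A, iab-4 and Abd-B. Coordinates of that table were not joined to the release 5 peaks, so peaks are placed below by their position in the complex, and which gene or boundary each one touches was not analysed here.

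L(3)mbt peaks in the complexes had higher median scores than those on the rest of 3R, and both complexes together held more peaks per Mb. The score of a peak is the authors' own value for its 400 bp region. The median score was 52.9 in the Antennapedia complex (17 peaks, range 9.46 to 248.4) and 43.7 in the bithorax complex (16 peaks, range 7.54 to 231.2), against 16.9 on the rest of 3R (763 peaks, range 7.50 to 358.7). The binomial 95% interval of the median was 32.5 to 111.8 in the Antennapedia complex and 11.6 to 92.6 in the bithorax complex, against 15.6 to 18.5 on the rest of 3R. The interval of the Antennapedia complex thus lay above that of the rest of the arm, and that of the bithorax complex overlapped it. The median of the bithorax complex depended on the edges and the list. It was 23.9 with the windows narrowed by 20 kb or widened by 50 kb at each end, and with the 3% list it was 24.7, against 11.3 on the rest of 3R in that list. A score of at least 50 was reached by 10 of 17 peaks of the Antennapedia complex and 8 of 16 of the bithorax complex, together 54.5% (exact 95% interval 36.4 to 71.9%), against 20.4% on the rest of 3R. A score of at least 100 was reached by 6 and 3 peaks of these complexes, together 27.3% (13.3 to 45.5%), against 9.17% on the rest of 3R. Taken alone, the share was 35.3% (14.2 to 61.7%) in the Antennapedia complex and 18.75% (4.05 to 45.6%) in the bithorax complex. The interval of the bithorax complex thus included the share on the rest of 3R. These intervals take each peak as independent and cover counting error only.

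**Figure D1:**
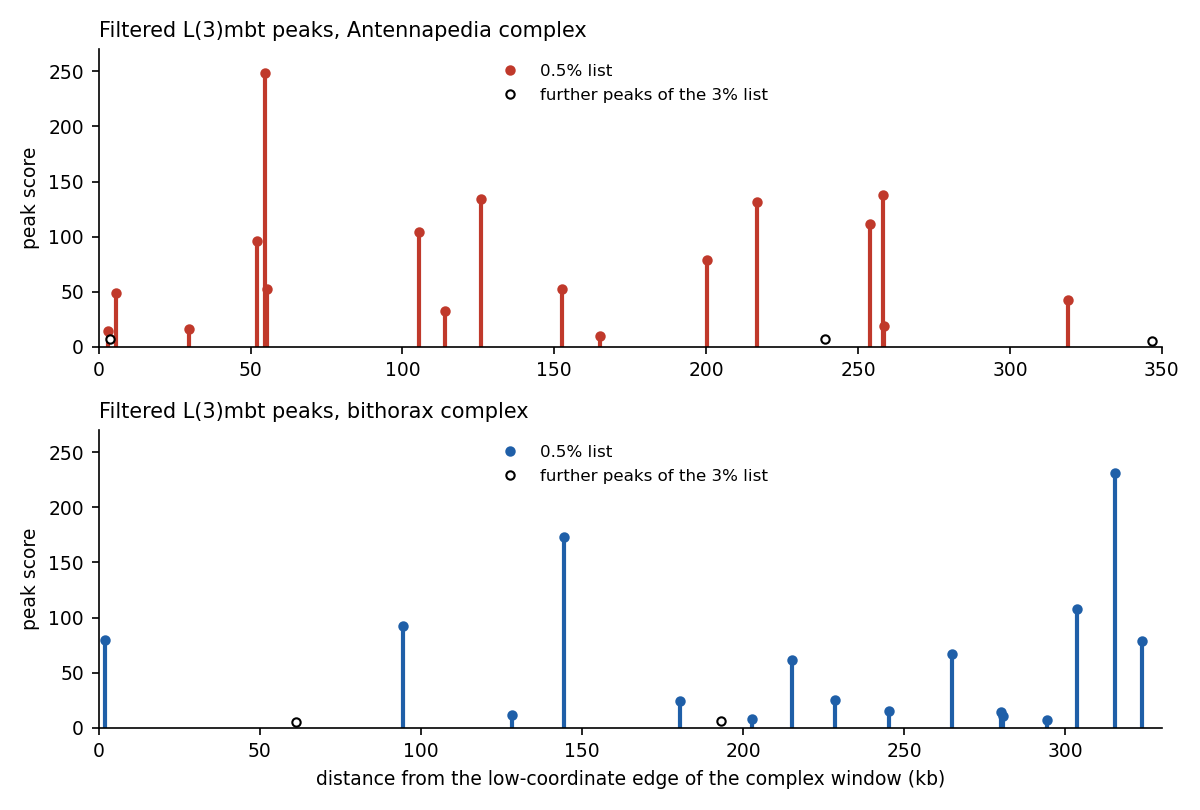
Score of each filtered L(3)mbt peak (vertical axis) against its distance in kb from the low-coordinate edge of the Antennapedia complex (upper panel) and of the bithorax complex (lower panel). Filled points with stems are peaks of the 0.5% list and open points are further peaks of the 3% list. The highest peaks scored 248.4 in the Antennapedia complex and 231.2 in the bithorax complex.

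Along the Antennapedia complex, the first 50 kb held weak to moderate peaks. Scores were 14.5 from 2482969 to 2483368, 48.7 from 2485652 to 2486051 and 16.1 from 2509387 to 2509786. The second 50 kb held the strongest group of the complex, 3 peaks within 3.71 kb. From 2532048 to 2532447 the score was 96.2, from 2534580 to 2534979 it was 248.4 and from 2535358 to 2535757 it was 52.9. The middle one of these ranked 8 among the 796 peaks of 3R and 25 in the whole list. Together the group carried 29.9% of the summed score of the complex. It was followed by 49.5 kb without a filtered peak, in which 2 unfiltered ChIP calls, of heights 6.19 and 6.37, and 22 input calls were listed.

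The next peaks of the Antennapedia complex varied widely in score. From 2585223 to 2585622 the score was 104.3, from 2593958 to 2594357 it was 32.5 and from 2605757 to 2606156 it was 134.5. The last of these ranked 43 on 3R. The peaks from 2632356 to 2632755 and from 2644942 to 2645341 followed with 52.7 and 9.46, and the score of 9.46 was the lowest of the complex. Scores then were high again, at 79.1 from 2679985 to 2680384 and at 131.3 from 2696541 to 2696940.

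A further close group of 3 peaks in 5.04 kb lay in the sixth 50 kb of the Antennapedia complex. From 2733779 to 2734178 the score was 111.8, from 2737885 to 2738284 it was 137.8 and from 2738414 to 2738813 it was 18.6. The strong and the weak peak at the end of this group were separated by 129 bp. After it came the longest peak-free stretch of the complex, 60.2 kb with 9 unfiltered ChIP calls of heights from 5.14 to 12.5. A single peak of score 42.4, from 2798981 to 2799380, lay in the last 50 kb. Strong binding was therefore listed at several separate places of the complex, and its 5 highest peaks together held 57.4% of the summed score.

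In the bithorax complex the first peak, from 12481848 to 12482247, scored 79.4 and stood alone. The next 92.0 kb held no filtered peak and 2 unfiltered ChIP calls, of heights 6.49 and 12.8, against 34 input calls. This stretch ranked 76 among the 795 gaps between neighbouring peaks on 3R. Past it, from 12574235 to 12574634, a peak scored 92.6. From 12608117 to 12608516 the score was 11.6, and from 12624277 to 12624676 it was 173.0. The last of these was the second strongest of the complex and ranked 21 on 3R. It covered parts of a pair of unfiltered ChIP calls of similar height, 360.2 and 426.4, so the region listed as 1 peak held a pair of ChIP maxima.

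The middle of the bithorax complex held a run of weak and moderate peaks at fairly even distances. From 12660365 to 12660764 the score was 23.9, from 12682701 to 12683100 it was 8.33 and from 12694912 to 12695311 it was 62.0. From 12708272 to 12708671 it was 25.4, from 12725049 to 12725448 it was 15.4 and from 12744784 to 12745183 it was 67.1. Scores of neighbours in this run thus differed up to several-fold without a trend along it.

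The high-coordinate end of the bithorax complex held both its weakest peak and its strongest. In a close pair the scores were 14.8 from 12759829 to 12760228 and 10.6 from 12760445 to 12760844. The peak from 12774306 to 12774705 scored 7.54, close to the lowest score of the list. The peak from 12783481 to 12783880 then scored 108.1, the one from 12795254 to 12795653 scored 231.2 and the one from 12803646 to 12804045 scored 78.9. The peak of score 231.2 ranked 13 on 3R and 36 among all peaks. The last 55 kb carried 44.7% of the summed score of the complex in 6 peaks. The 5 highest peaks of the complex held 67.8% of it.

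At the 3% rate, 5 further peaks were listed, 3 in the Antennapedia complex with scores from 5.67 to 7.05 and 2 in the bithorax complex with scores of 5.71 and 6.63. One of them, from 12541204 to 12541603, lay inside the 92.0 kb stretch of the bithorax complex, and one lay 26 bp from the first peak of the Antennapedia complex. Scores below those of the stricter list are fixed by the way the lists were made. Just outside the windows, the nearest peaks to the Antennapedia complex scored 83.6, from 2472353 to 2472752, and 9.04, from 2892790 to 2893189. Those nearest to the bithorax complex scored 9.41, from 12476650 to 12477049, and 38.2, from 12817429 to 12817828. Both low-coordinate neighbours and the one above the bithorax complex lay within 8 kb of an edge, so the counts depend on where the edges were set.

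Peaks numbered 48.6 per Mb in the Antennapedia complex and 48.5 per Mb in the bithorax complex, against 28.0 per Mb on the rest of 3R. The ratio was 1.73 (exact 95% interval 1.00 to 2.79) for the Antennapedia complex and 1.73 (0.98 to 2.83) for the bithorax complex. For both together it was 1.73 (1.18 to 2.45). With the 3% list it was 1.48 (0.90 to 2.30) for the Antennapedia complex, so its interval no longer left out 1. The complexes did not differ detectably from each other in this, with a ratio of Antennapedia to bithorax complex of 1.00 (0.48 to 2.12). In windows of 350 kb and 330 kb along 3R that share no base with the complexes, the variance of peak counts was 1.84 and 1.59 times the mean, so the intervals are likely too narrow. Against the stretches of the same width directly before and after, the ratio for both together was 1.53 with an interval from 0.94 to 2.47. It was 1.70 (0.84 to 3.42) for the Antennapedia complex and 1.39 (0.69 to 2.75) for the bithorax complex. The stretch before the bithorax complex held 15 peaks and the one after it 8, against 16 in the complex.

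**Figure D2:**
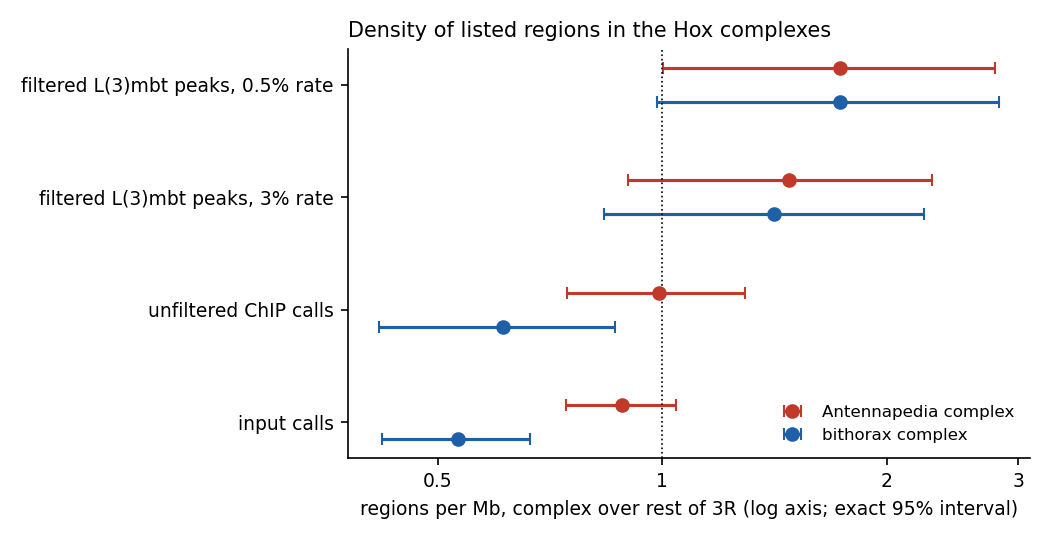
Regions per Mb in each complex divided by regions per Mb on the rest of 3R (log axis), for the 4 deposited lists, with the Antennapedia complex above the bithorax complex in each pair. Points are ratios, bars are exact 95% intervals and the dotted line marks equal density. Filtered peaks lay at 1.73 in both complexes, and input calls lay at 0.88 in the Antennapedia complex and 0.53 in the bithorax complex.

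Number and strength together gave the complexes higher summed scores than the windows of 3R, tiled at the same width, that share no base with either of them. The 17 peaks of the Antennapedia complex covered 6.8 kb and had a summed score of 1331.3. Of 76 other windows of 350 kb on 3R, 0 reached that sum. The median of those windows was 316.0 and the highest, from 730001 to 1080000, was 965.4. The 16 peaks of the bithorax complex covered 6.4 kb and had a summed score of 1009.9. Of 80 other windows of 330 kb on 3R, 0 reached it, with a median of 299.3 and a highest value of 897.2, from 10830001 to 11160000. By number of peaks alone the complexes were less extreme, since 5 other windows held at least 17 peaks in the first set and 5 held at least 16 in the second.

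Windows were also placed every 10 kb along 3R. Neighbouring ones share most of their bases, so the number of such windows is not a number of separate places. At the 0.5% rate, none of 2619 such windows of 350 kb and none of 2625 of 330 kb reached the sum of its complex. Their highest sums were 1060.5 and 985.9, so the margin of the bithorax complex was small. With the 3% list, 1 of the 2625 windows reached its sum, which was 1022.2 in the complex and 1025.0 in that window. By summed height of unfiltered ChIP calls, 21 of 2625 reached that of the bithorax complex and 0 of 2619 that of the Antennapedia complex. Windows on the arms 2L, 2R, 3L and X were compared by summed score of the 0.5% list. There, 0 of 259 windows of 350 kb and 0 of 274 of 330 kb reached the sum of the complex. The highest summed scores were 973.1 and 938.2. Without its strongest peak the Antennapedia complex still had 1082.9, which 0 of the 76 windows reached. Without its strongest peak the bithorax complex had 778.7, which 2 of the 80 windows reached. The other windows kept their own strongest peaks in both comparisons, which were thus unequal to the disadvantage of the complexes. These ranks are a description of the lists with no test.

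**Figure D3:**
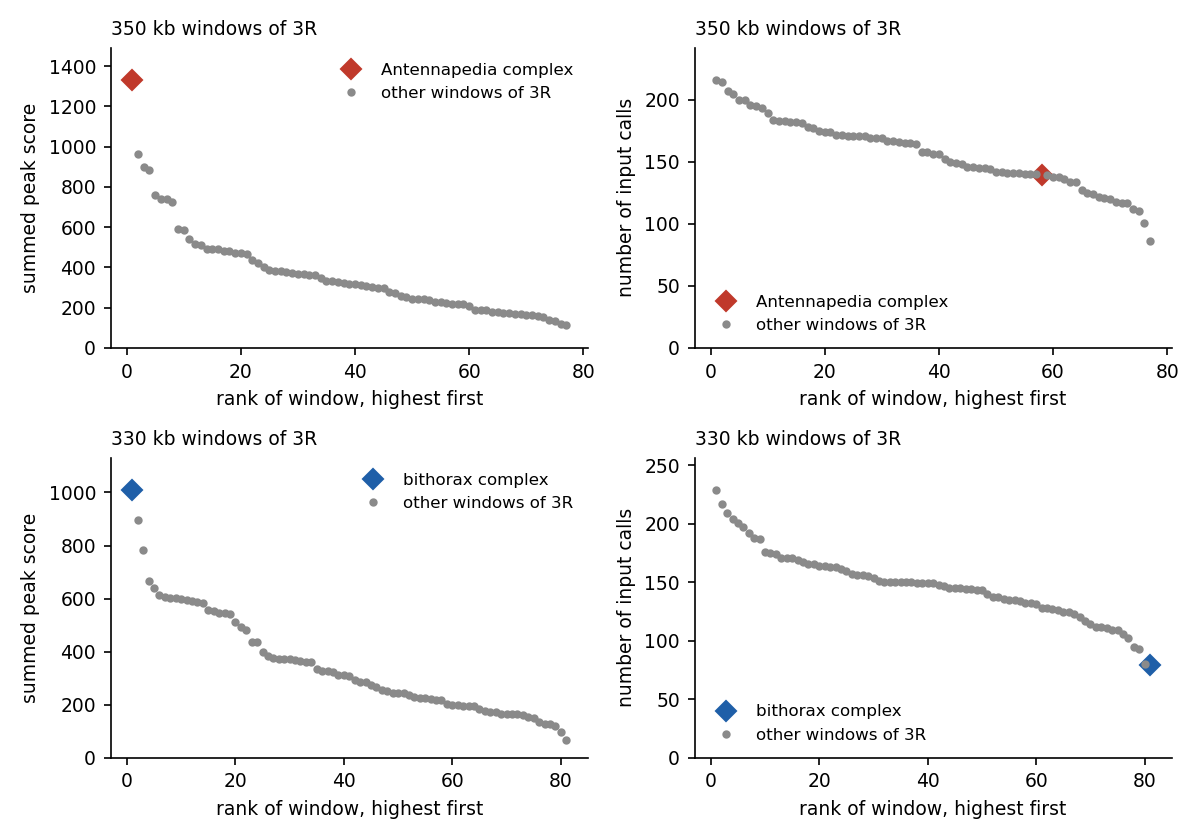
Windows of 3R ranked from highest to lowest (horizontal axis) by summed score of filtered L(3)mbt peaks (left panels) and by number of input calls (right panels). Diamonds are the Antennapedia complex (upper, 350 kb windows) and the bithorax complex (lower, 330 kb windows), and grey points are windows that share no base with either complex. Both complexes ranked highest by summed score, and the bithorax complex had the fewest input calls, 79.

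**Figure D4:**
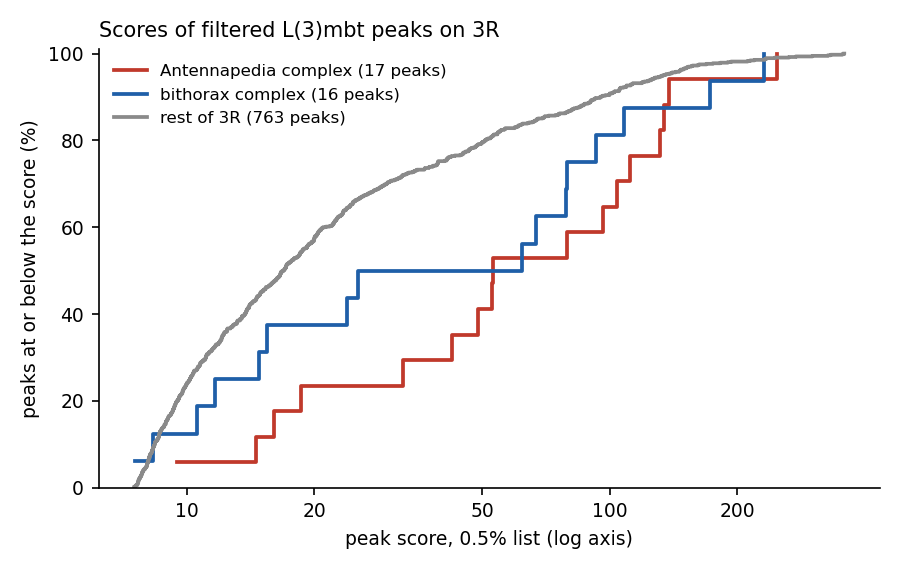
Cumulative percentage of filtered L(3)mbt peaks (vertical axis) at or below a given score (horizontal log axis) in the Antennapedia complex, the bithorax complex and the rest of 3R. Both complex curves lie mostly to the right of that of the rest of 3R, with medians of 52.9 and 43.7 against 16.9, and they meet it again among the highest scores.

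The distances between neighbouring peaks had like medians in both complexes and a narrower middle range in the bithorax complex. Gaps between neighbouring peaks had a median of 14.2 kb in the Antennapedia complex (16 gaps) and 14.6 kb in the bithorax complex (15 gaps), against 17.8 kb on the rest of 3R (760 gaps). The middle 50% of the gaps ran from 3.35 to 28.3 kb in the Antennapedia complex and from 11.6 to 20.6 kb in the bithorax complex, against 6.21 to 44.0 kb on the rest of 3R. Gaps under 5 kb numbered 5 of 16 in the Antennapedia complex and 1 of 15 in the bithorax complex, against 20.5% on the rest of 3R. From 12574235 to 12804045 the bithorax complex held 15 peaks, and apart from the close pair the gaps between them ran from 7.99 to 35.7 kb. The difference in spacing was not tested.

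The unfiltered ChIP list gives another value for the same places, taken to be made from the same ChIP material. The height of a call is the authors' value for its 270 bp region, and it is not on the scale of the score. Of 55 unfiltered ChIP calls in the Antennapedia complex 11 had a height of at least 100, and of 32 in the bithorax complex 9 did, together 23.0% (exact 95% interval 14.6 to 33.2%), against 4.17% on the rest of 3R. Among calls in the complexes that overlap no filtered peak, the highest was 27.1. Calls of at least 100 in the complexes thus all overlapped a filtered peak, and their share is not independent of the scores. The highest call of all was 616.2 in the Antennapedia complex and 549.0 in the bithorax complex. Both belonged to the peaks with the highest score in their complex. Over the 33 member peaks, score and the height of the highest overlapping call had a Spearman correlation of 0.99. It is a description of values taken to be made from the same ChIP material. The call centre lay within 20 bp of the peak centre for 27 of the 33, with a largest offset of 144 bp at the peak with a pair of maxima. The correlation and the offsets were not computed for the rest of 3R, so neither can be called particular to the complexes.

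ChIP calls in the bithorax complex were fewer per Mb than on the rest of 3R, and a large part of them overlapped peaks. They numbered 97.0 per Mb there, against 158.6 per Mb on the rest of 3R, a ratio of 0.61 (exact 95% interval 0.42 to 0.86). So low a count was not rare. Of the 80 other windows of 330 kb on 3R, 11 held fewer than its 32 calls, with a median of 49.5. On 2L, 2R and 3L, 41 of 207 windows held 32 or fewer. The variance of counts between the windows of 3R was 8.29 times the mean, so the interval is likely too narrow. In the Antennapedia complex the density was 157.1 per Mb, a ratio of 0.99 to the rest of 3R (0.75 to 1.29). Of these calls, 18 of 32 in the bithorax complex overlapped a filtered peak by at least 1 bp (56.2%, exact 95% interval 37.7 to 73.6%), and 18 of 55 in the Antennapedia complex did (32.7%, 20.7 to 46.7%), against 20.6% on the rest of 3R. The calls that overlap no filtered peak were sparse in the bithorax complex, with 14 calls at 42.4 per Mb, where the rest of 3R had 125.9 (ratio 0.34, 0.18 to 0.57). In the Antennapedia complex 37 such calls gave a ratio of 0.84 to the rest of 3R (0.59 to 1.16). Within 1 kb of a filtered peak lay 7 of the 14 and 9 of the 37, so not all were far from peaks. This was not counted for the rest of 3R. With calls of height 10 or more alone, the direction in the bithorax complex turned, with a ratio of 1.53 to the rest of 3R (0.99 to 2.27). Low calls were thus scarce there and high ones were not.

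**Figure D5:**
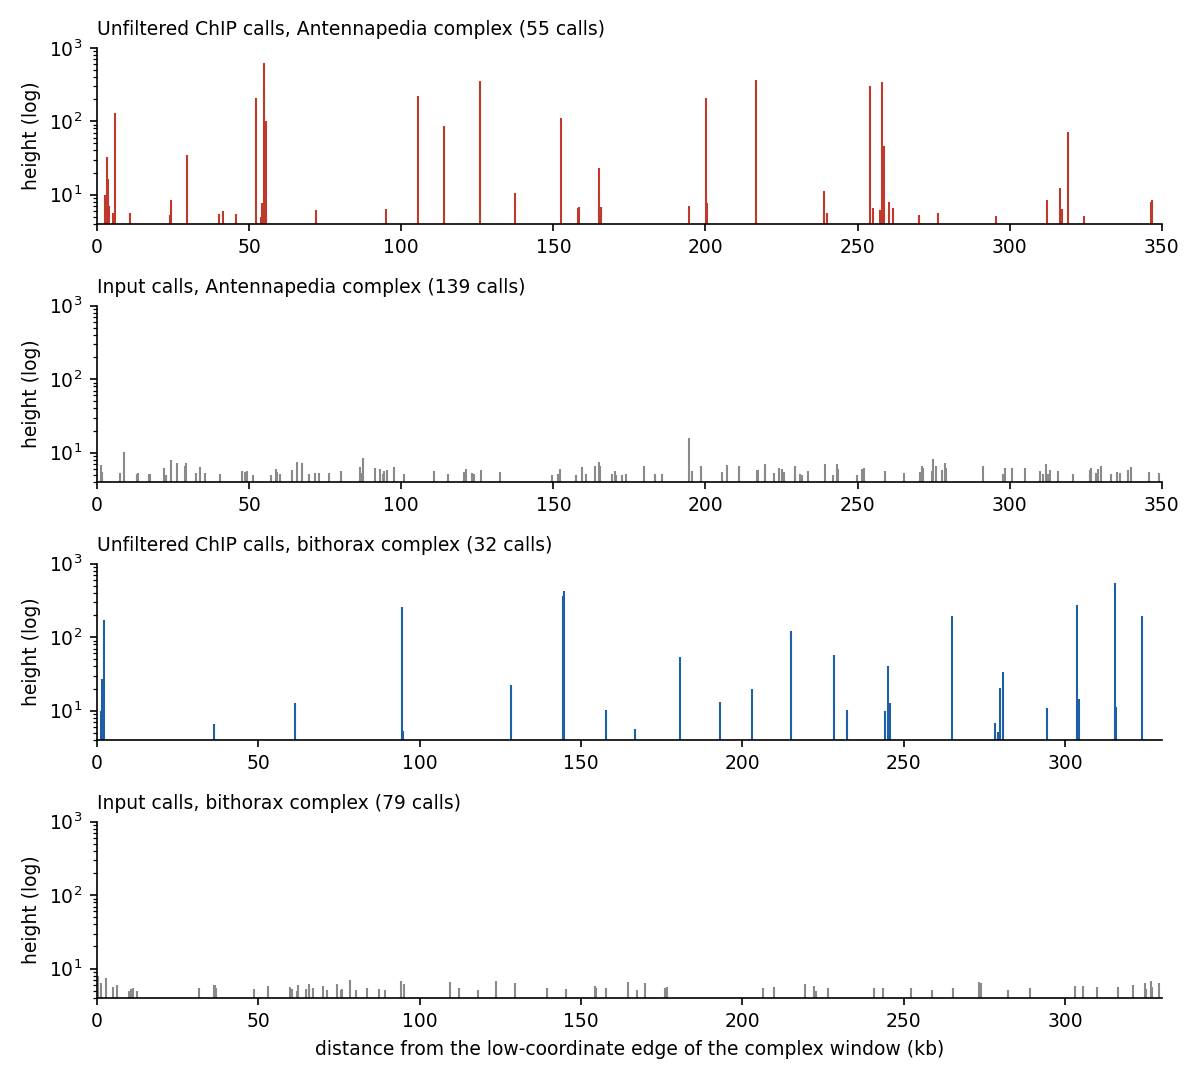
Height of each unfiltered ChIP call (coloured) and each input call (grey) on a log axis, against distance in kb from the low-coordinate edge of the complex window. The upper pair of panels shows the Antennapedia complex and the lower pair the bithorax complex. ChIP calls reached 616.2 and 549.0, and the highest input calls reached 15.8 and 7.95, each list on its own scale.

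Input calls were scarce in the bithorax complex as well. There were 79 of them, a density of 239.4 per Mb, where the rest of 3R had 449.5, a ratio of 0.53 (exact 95% interval 0.42 to 0.66). All of the 80 other windows of 330 kb on 3R held more, from 80 upwards with a median of 149. Of the overlapping windows every 10 kb, 20 of 2625 held 79 or fewer. On 2L, 2R and 3L, 10 of 207 windows held 79 or fewer, and on X, where the whole input list is sparse, 64 of 67 did. Directly before and after the complex, stretches of the same width held 147 and 171 calls. From low to high coordinates, the 6 parts of 55 kb in the complex held 17, 21, 11, 7, 10 and 13 input calls. The scarcity was thus uneven and greater past the first 110 kb. In the Antennapedia complex there were 139 input calls, or 397.1 per Mb, a ratio of 0.88 to the rest of 3R (0.74 to 1.04). The part of this scarcity in the scores and calls of the bithorax complex was not tested, and the sources used here do not state how input entered the score or how the input list was made.

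Input calls in the complexes were about as high as elsewhere on 3R. Their median was 5.58 in the Antennapedia complex and 5.51 in the bithorax complex, against 5.64 on the rest of 3R. The highest input call of the Antennapedia complex, from 2674496 to 2674765, had a height of 15.8 and ranked 6 among the 12450 input calls of 3R. It lay 5.55 kb from the nearest filtered peak, so no listed L(3)mbt peak coincided with it. The highest of the bithorax complex had a height of 7.95. An input call overlapped 3 of 17 peaks in the Antennapedia complex and 1 of 16 in the bithorax complex, together 12.1% (exact 95% interval 3.40 to 28.2%), against 5.9% on the rest of 3R, a difference that was not detectable with so few peaks. With at least 100 bp shared, the shares were 6.06% (0.74 to 20.2%) in both complexes together and 2.88% on the rest of 3R. The overlapped peaks scored 52.7, 9.46 and 131.3 in the Antennapedia complex and 67.1 in the bithorax complex, so both weak and strong ones were among them. Within the 3 close groups of the Antennapedia complex and the close pair of the bithorax complex, 0 input calls were centred. The groups were short, at 3.08, 3.71 and 5.04 kb, and the pair spanned 1.02 kb. On average 1 input call came per 2.52 kb in the Antennapedia complex and per 4.18 kb in the bithorax complex. Close groups on the rest of 3R were not counted, so the 0 cannot be called particular to these.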

How the data were processed

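The data were 4 deposited peak lists, each taken to stand for a group as a whole, which give 1 signal value per region made by the authors' caller. Reads were mapped with Bowtie per the submitters' processing notes. The caller is pypeak from the lists' own names, and the sources used here give neither its settings nor the build, any input subtraction or any pooling of strains. In the filtered lists the signal times the 400 bp width was whole for 100% of peaks (within 0.01). The shorter list was taken as the 0.5% rate from its name. The list named control was taken as input. Columns from other samples numbered 0.

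Starts were shifted to count from 1. The rest of 3R was the span to its last listed region, 27.9 Mb, less both complexes. Density ratios have exact conditional intervals, shares Clopper-Pearson intervals and medians binomial ones, all at 95%. No p-value was computed. The intervals of the density ratio and the median were tested on simulated independent counts and values, and those of the shares were not. The simulation left out the extra variance of counts between windows, so it does not show that the intervals hold for these data. All peaks of the 0.5% list in the complexes were named. Members and windows were chosen with earlier results of these data known. The release 6 gene table matched 15 of 15 symbols and gave names and order only. Alternatives were other lists, edges, merging, overlap rules and height minima. The stretches beside the complexes, calls that overlap no peak, windows every 10 kb and sums without the strongest peak were added after seeing the data. Python 3.11.15, numpy 2.4.6, pandas 2.3.3, scipy 1.17.1 and matplotlib 3.10.9 were used.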

Additional observations from a re-analysis of the deposited data

Results flagged for a closer look

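The complexes differed from each other in the lists to which the peak filter was not applied. Input calls were 1.66 times as dense in the Antennapedia complex as in the bithorax complex (exact 95% interval 1.25 to 2.22), and unfiltered ChIP calls were 1.62 times as dense (1.03 to 2.59), while filtered peaks were 1.00 times as dense (0.48 to 2.12). Both unfiltered ratios drew attention because their interval does not include 1. In windows of 330 kb on 3R the variance of counts was 5.54 times the mean for input calls and 8.29 times for unfiltered ChIP calls, so both intervals are likely too narrow.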

How the results depend on the processing

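The 16 results were recomputed 52 times in all, and 40 of these values were counted as the same. For this, density ratios had to keep their direction and call, and medians and shares had to lie within the reported value's interval. Summed scores had to move by at most 1.5 times, and numbers of windows had to be equal. Of the 40, 34 moved by at most 1.5 times. The other 6 were the bithorax median score (23.9 with narrower and with wider windows, 24.7 with the 3% list), the overlap with input calls at 100 bp (6.06%), the Antennapedia peak density in the stronger 50% (2.91) and the bithorax density of ChIP calls that overlap no peak (0.34). The density of filtered peaks in the Antennapedia complex, whose interval barely left out 1, no longer did so with the 3% list (1.48), narrower windows (1.72), wider windows (1.52), merged neighbours (1.59) or the adjoining stretches as the rest (1.70). In the bithorax complex the interval did leave out 1 with the stronger 50% of the peaks (2.21) and with wider windows (2.09), and for both complexes it no longer did against the adjoining stretches (1.53). With ChIP calls of height 10 or more, the density ratio was 1.21 in the Antennapedia complex and turned to 1.53 in the bithorax complex. Input density in the Antennapedia complex was 0.78 times that of the adjoining stretches, with an interval that left out 1. Without its strongest peak, the summed score of the bithorax complex was reached by 2 windows, which kept their own strongest peaks. The cause was not tested. No paired analysis was possible because no list gives values per sample, and for the same reason no replicate could be left out. With 33 peaks and unknown depth, weak binding in the complexes cannot be bounded.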
